A study of Mus musculus with 6 samples.

Results

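The 40 genes described here encode proteins that drive the cell cycle, replicate DNA or divide chromosomes, and they serve as transcript markers of dividing progenitors. They were chosen by name: a row of the expression table was a member if its gene symbol was on the list of 40. That rule uses no measured value, but the list was drawn up with earlier results of these data known. All 40 were found among the 55492 genes of the table, and all 40 passed the filter on expression (a mean TPM of at least 0.5), as did 15245 genes in total.

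The expression values came from bulk RNA-seq of brain cells of WT and *Npc1-/-* mice at P16, with 3 mice and 3 libraries per genotype and no other treatment. Each brain was dissociated whole, and cells were captured with magnetic beads against O4, a surface lipid antigen of late oligodendrocyte progenitor cells (OPCs) and immature oligodendrocytes. *Npc1* encodes the lysosomal cholesterol exporter that is lost in Niemann-Pick type C disease. The *Npc1-/-* mice carried the *Npc1nih* allele in every cell of the body and were F1 hybrids from *Npc1+/-* parents on BALB/cJ and C57BL6/J backgrounds, so a difference between genotypes need not arise within the captured cells.

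In a dividing cell, E2F transcription factors and cyclin E with its kinase start S phase, MCM helicases loaded at origins unwind the DNA, and a polymerase clamp and nucleotide enzymes support its copying. Cyclins A and B with Cdk1 then drive mitosis, in which motors and centromere proteins separate the chromosomes before the cyclins are destroyed. OPCs keep dividing in the postnatal brain and leave the cycle as they mature, and granule cell precursors of the cerebellum and neuroblasts of the subventricular zone also divide after birth.

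Levels are given as scaled TPM, the deposited TPM (a transcript abundance that allows for transcript length) divided by a size factor per library. The libraries held between 40500000 and 50000000 fragments, as read from the steps between low values. At that depth 1 scaled TPM of a transcript of 2000 effective bases rested on 52.1 to 80.6 fragments. The captured cells carried abundant mature oligodendrocyte transcripts, and *Mbp* alone took between 18.8% and 26.1% of TPM. The label check held, with *Npc1* at 41.1 to 45.5 scaled TPM in WT and 3.72 to 5.17 in *Npc1-/-* libraries. One library stood apart in sex-linked genes: *Npc1-/-* replicate 3 had *Xist* at 21.4 scaled TPM and the Y-linked *Ddx3y* at 0, whereas in the other 5 libraries *Xist* was at most 0.00963 and *Ddx3y* at least 16.9. Where leaving out this mouse moved the fold change of a member given with its adjusted p and values in every library by over 1.5 times, the value without it is given as well.

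Promoter sequences were examined because the members fall into groups with well known promoter elements. Genes of the G1/S transition often carry E2F sites, whereas genes of mitosis often carry a cell cycle homology region (CHR), bound by the DREAM and MuvB complexes, together with CCAAT boxes bound by NF-Y. RefSeq promoters (GRCm38.p6, from 250 bases before to 50 bases after a gene's start) were found for 33 of the 40 members. *Ccne2*, *Mcm4*, *Gmnn*, *Ccna2*, *Aurkb*, *Kif20a* and *Tpx2* had no entry. The promoters of 4 members are printed because their transcripts lay at the extremes of the data. *Top2a* and *Ube2c* varied most between mice of a genotype, and *Mcm7* and *Pcna* varied least and were the members whose genotypes did not overlap. Capitals mark GCGGGAA (E2F), TTTGAA (CHR) and CCAAT on either strand, and so their reverse complements as well. The windows are chr11:99024140-99024439 (minus strand) for *Top2a*, chr2:164769679-164769978 (plus strand) for *Ube2c*, chr5:138171834-138172133 (minus strand, the more upstream of 2 starts) for *Mcm7* and chr2:132253131-132253430 (minus strand) for *Pcna*.
Top2a: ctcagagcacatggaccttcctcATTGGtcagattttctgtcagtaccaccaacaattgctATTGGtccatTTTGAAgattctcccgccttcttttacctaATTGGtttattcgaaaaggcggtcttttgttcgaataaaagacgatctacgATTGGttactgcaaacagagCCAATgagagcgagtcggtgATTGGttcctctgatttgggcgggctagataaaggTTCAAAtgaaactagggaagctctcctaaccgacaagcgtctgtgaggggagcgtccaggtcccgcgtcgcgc
Ube2c: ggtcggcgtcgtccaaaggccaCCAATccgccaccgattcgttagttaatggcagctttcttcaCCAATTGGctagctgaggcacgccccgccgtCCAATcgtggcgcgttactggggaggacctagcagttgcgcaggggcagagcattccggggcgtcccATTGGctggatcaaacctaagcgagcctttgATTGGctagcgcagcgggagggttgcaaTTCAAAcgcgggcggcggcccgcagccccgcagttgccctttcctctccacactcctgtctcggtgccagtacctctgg
Mcm7: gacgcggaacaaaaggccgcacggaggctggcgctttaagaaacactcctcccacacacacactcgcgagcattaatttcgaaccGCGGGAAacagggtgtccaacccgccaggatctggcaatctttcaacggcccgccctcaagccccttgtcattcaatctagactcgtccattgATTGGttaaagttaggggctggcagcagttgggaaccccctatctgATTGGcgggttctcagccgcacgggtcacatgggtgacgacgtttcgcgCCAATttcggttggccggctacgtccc
Pcna: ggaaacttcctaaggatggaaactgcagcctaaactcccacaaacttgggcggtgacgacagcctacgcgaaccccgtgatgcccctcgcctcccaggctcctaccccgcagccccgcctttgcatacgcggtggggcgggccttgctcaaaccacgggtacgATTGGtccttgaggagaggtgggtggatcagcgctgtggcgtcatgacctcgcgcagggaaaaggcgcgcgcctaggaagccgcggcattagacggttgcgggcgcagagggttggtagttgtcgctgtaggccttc

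The *Top2a* window held 2 CHR matches and 6 CCAAT matches, and the *Ube2c* window held 1 CHR match and 6 CCAAT matches, a pair of which overlapped on opposite strands. Neither contained the E2F letters. The *Mcm7* window held 1 E2F match and 3 CCAAT matches, the *Pcna* window held 1 CCAAT match, and neither contained the CHR letters. Among the 20 promoters of mitotic members, 15 held both a CHR match and a CCAAT match, compared with 1 of the 13 promoters of the other members and 7.97% of the promoters of all 27025 genes in the table. The E2F letters were found for 4 of the 33 members (12.1%, against 5.29% of all genes), namely *Cdk2*, *Mcm3*, *Mcm7* and *Cdt1*. For E2F and CHR alike only the exact letters were searched, so a member without a match may carry a site of other letters. The window of *E2f1* (chr2:154569377-154569676, minus strand) lay inside the gene, whose outermost annotated start is at 154569892. The printed *Mcm7* window also lay inside its gene, with the outermost annotated start at 138172422. So did that of *Cdca8* (chr4:124936868-124937167, minus strand), with the outermost annotated start at 124939311. Letters at these outermost starts were not read. A CHR match was found for 20.2% of all genes and a CCAAT match for 41.1%. These matches describe letters in a window and are not evidence of binding.

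No member differed between genotypes past the threshold, a log2 fold change of 0.1 or more in size with a Benjamini-Hochberg adjusted p under 0.05 in limma. The count was 0 of 40 higher and 0 of 40 lower in *Npc1-/-* cells, where 0.813% of all genes tested were called in either direction. At an unadjusted p below 0.05, 1 member was found, *Mcm7*, where 22.2% of all genes tested had such a p. The smallest adjusted p among members was 0.107 in limma. The log2 fold change was above 0 in 31 members and below 0 in 9, with a range from -0.27 to 0.85, and its median was 0.13 beside a median of 0.0081 over all genes tested. The 95% confidence interval of the fold change included 0 in 39 of the 40 members. In bulk RNA, a change in the number of dividing cells and a change in these transcripts per cell cannot be told apart.

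**Figure D1:**
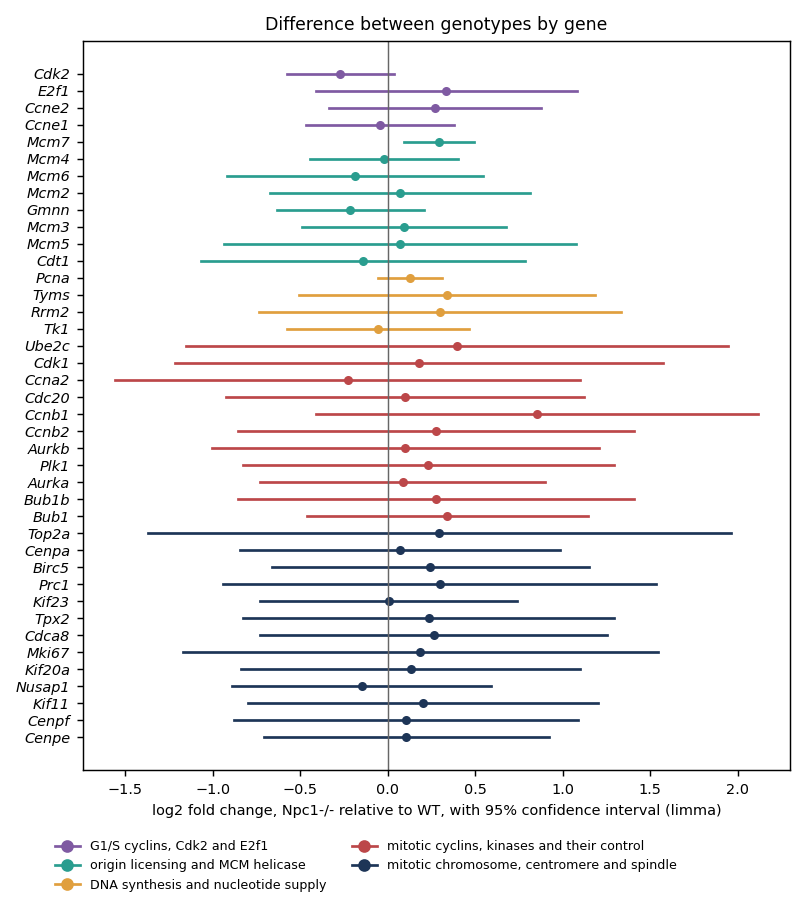
Log2 fold change of each member in *Npc1-/-* relative to WT cells (points, 3 mice per genotype) with its 95% confidence interval from limma (lines), coloured by role. The *Mcm7* interval lies above 0 and the other 39 include 0, with the widest intervals among the mitotic genes.

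The direction of the members' median depended on single mice. It was 0.38 without WT replicate 1 and 0.52 without *Npc1-/-* replicate 3, but -0.077 without WT replicate 3 and -0.16 without *Npc1-/-* replicate 1. Members above and below 0 numbered 34 and 6, 38 and 2, 13 and 27, and 7 and 32 in these settings as listed. Without *Npc1-/-* replicate 3, 8 members had both remaining *Npc1-/-* libraries above every WT library, where 20.1% of all genes tested did, and 5 of 40 members (*Bub1b*, *Ccnb1*, *Cenpa*, *Mcm7* and *Tyms*) had an unadjusted p below 0.05, where 21.6% of all genes tested did. The smallest adjusted p of a member was then 0.116 in limma, so that no member was called. In 38 of the 40 members the values of the 2 genotypes overlapped.

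**Figure D2:**
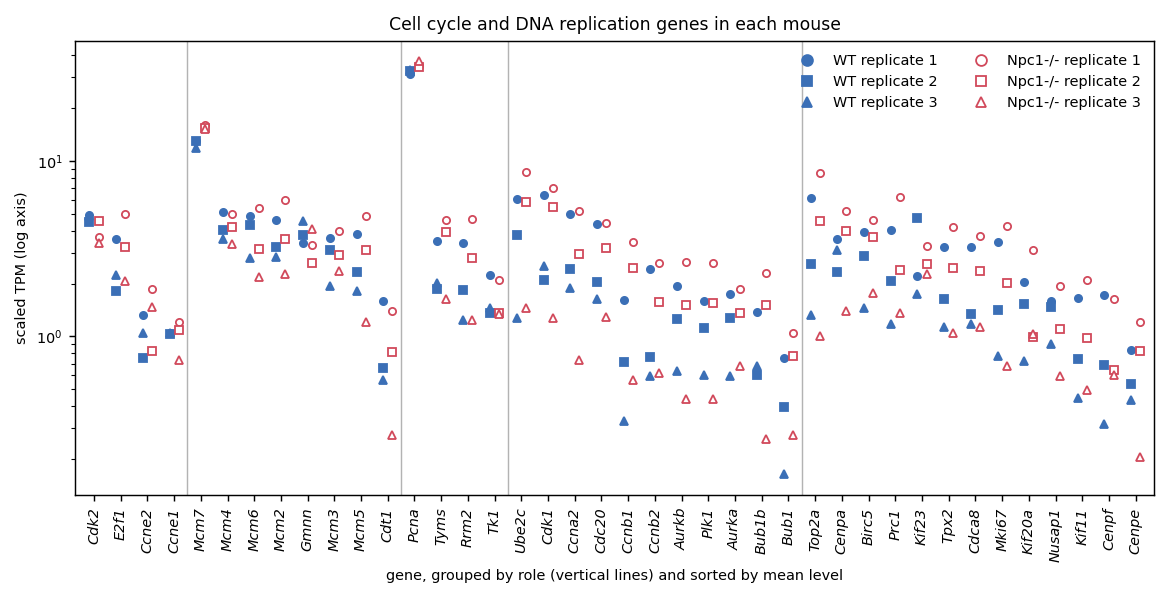
Scaled TPM (log axis) of the 40 members in each of the 6 libraries, grouped by role. Filled blue symbols are WT and open red symbols *Npc1-/-* mice, and shapes mark the replicate number. The genotypes are separate in *Mcm7* and *Pcna* and overlap in the other 38 genes, and in most mitotic genes replicate 1 of each genotype lies highest.

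*Mcm7* and *Pcna* were the members in which every *Npc1-/-* library lay above every WT library. That is 2 of 40 members, where 13.3% of all genes tested had this pattern. No member had every *Npc1-/-* library below every WT library, where 14.2% of all genes tested did. With 3 mice per genotype, the exact two-sided permutation p of such a gene is 0.1, the smallest this design allows.

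Origin licensing and the MCM helicase were represented by 8 members, of which 4 had a log2 fold change above 0 and 4 below 0 (median 0.024), none past the threshold. *Mcm7*, a subunit of the ring-shaped replicative helicase, was at 12.9, 13.0 and 11.8 scaled TPM in the WT mice (here and below in the order of replicates 1, 2 and 3) and at 16.0, 15.4 and 15.2 in the *Npc1-/-* mice. The lowest *Npc1-/-* value thus exceeded the highest WT value. The means were 12.6 ± 0.668 and 15.5 ± 0.390 (SD, n = 3 each), a ratio of 1.23. The log2 fold change was 0.29 (SE 0.0855, 95% confidence interval 0.092 to 0.49), with an adjusted p of 0.107 in limma. Exons of *Mcm7* overlap those of *Cops6* and *Ap4m1* on the other strand, with mean TPM of 56.7 and 5.02, and whether the strand was used in counting is not stated. *Cops6* itself had log2 fold change 0.13 and *Ap4m1* 0.072, so the *Mcm7* value is uncertain to the extent that reads of *Cops6* were assigned to it.

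The other 5 MCM subunits measured, *Mcm2* to *Mcm6*, differed less between genotypes than between mice. Their log2 fold changes lay between -0.19 (*Mcm6*) and 0.093 (*Mcm3*), with adjusted p between 0.784 and 0.959 in limma. *Mcm5* was at 3.84, 2.34 and 1.82 scaled TPM in WT mice and 4.88, 3.11 and 1.21 in *Npc1-/-* mice, so that both genotypes contained high and low mice. *Mcm7* is required in the same hexamer as these subunits, and it was the most abundant of the MCM members per transcript in each of the 6 libraries, with 11.8 as its lowest value. *Cdt1*, which loads the helicase, was at 1.60, 0.660 and 0.568 in WT and 1.40, 0.819 and 0.275 in *Npc1-/-* mice. *Gmnn*, whose product geminin inhibits Cdt1, was at 3.43, 3.81 and 4.57 in WT and 3.34, 2.61 and 4.10 in *Npc1-/-* mice, with log2 fold change -0.21 (SE 0.178, adjusted p = 0.539 in limma). It was -0.069 without *Npc1-/-* replicate 2, -0.12 without WT replicate 3 and -0.36 without *Npc1-/-* replicate 3. *Gmnn* was the licensing member in which replicate 3 was the highest mouse of each genotype.

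Among the 4 members of DNA synthesis and nucleotide supply, 3 had a log2 fold change above 0 (median 0.21). *Pcna*, the sliding clamp of the replicative polymerases that also serves in DNA repair, had the highest level of all members. It was at 31.3, 32.6 and 33.1 scaled TPM in WT and 35.0, 34.2 and 37.0 in *Npc1-/-* mice, without overlap. The ratio of the means was 1.10 and the log2 fold change 0.13 (SE 0.0781, 95% confidence interval -0.055 to 0.31), with an adjusted p of 0.392 in limma. No annotated exon of another gene overlaps *Pcna*, and its pseudogene *Pcna-ps2* was listed at 0.440 to 1.21 TPM. With TPM as deposited, without size factors, the log2 fold change of *Pcna* was -0.24 and that of *Mcm7* -0.067, while the median over all genes tested was -0.33, so both genes were higher only relative to that median.

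*Tyms*, the thymidylate synthase, was at 3.48, 1.86 and 2.02 scaled TPM in WT and 4.63, 3.92 and 1.62 in *Npc1-/-* mice, with log2 fold change 0.34 (SE 0.360, adjusted p = 0.640 in limma). The *Npc1-/-* values enclosed those of WT, and with a library left out the log2 fold change ran from 0.094 (without *Npc1-/-* replicate 1) to 0.73 (without *Npc1-/-* replicate 3). *Rrm2*, the S phase subunit of ribonucleotide reductase, was at 3.40, 1.83 and 1.24 in WT and 4.66, 2.78 and 1.24 in *Npc1-/-* mice, and *Tk1*, the thymidine kinase, had log2 fold change -0.058 (adjusted p = 0.911 in limma).

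The 4 members of the G1/S transition split evenly in direction, with a median log2 fold change of 0.11. *Cdk2*, the kinase partner of cyclins E and A, was at 4.93, 4.46 and 4.83 scaled TPM in WT and 3.68, 4.53 and 3.40 in *Npc1-/-* mice. Its log2 fold change of -0.27 (SE 0.131, 95% confidence interval -0.58 to 0.037, adjusted p = 0.282 in limma) was the lowest of all members, with *Npc1-/-* replicate 2 inside the WT range. *E2f1*, which activates S phase genes, was at 3.60, 1.82 and 2.24 in WT and 4.97, 3.22 and 2.06 in *Npc1-/-* mice (log2 fold change 0.33, SE 0.317, adjusted p = 0.597 in limma). With a library left out its log2 fold change ran from 0.060 (without *Npc1-/-* replicate 1) to 0.61 (without *Npc1-/-* replicate 3). The cyclin E genes *Ccne1* and *Ccne2* had log2 fold changes of -0.0445 and 0.27.

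The 11 mitotic cyclins, kinases and their regulators included the largest fold change. *Ccnb1*, which encodes the cyclin B1 that activates Cdk1, was at 1.61, 0.714 and 0.327 scaled TPM in WT and 3.48, 2.44 and 0.564 in *Npc1-/-* mice. In *Npc1-/-* replicates 1 and 2 it exceeded every WT value, and in replicate 3 it lay inside the WT range. The log2 fold change was 0.85 (SE 0.537, 95% confidence interval -0.41 to 2.12, adjusted p = 0.410 in limma), an interval too wide to separate a fall from a large rise. It was 0.46 without *Npc1-/-* replicate 1, 0.53 without WT replicate 3 and 1.44 without *Npc1-/-* replicate 3. In this role 10 of 11 members had a log2 fold change above 0, with a median of 0.23. The exception was cyclin A2 (*Ccna2*), at 4.99, 2.43 and 1.90 in WT and 5.16, 2.95 and 0.729 in *Npc1-/-* mice, with log2 fold change -0.23.

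*Ube2c*, the ubiquitin-conjugating enzyme that works with the anaphase-promoting complex, was at 6.05, 3.77 and 1.27 scaled TPM in WT and 8.65, 5.81 and 1.46 in *Npc1-/-* mice (log2 fold change 0.40, SE 0.658, adjusted p = 0.781 in limma). Its log2 fold change was -0.13 without WT replicate 3, -0.061 without *Npc1-/-* replicate 1 and 1.05 without *Npc1-/-* replicate 3. *Cdk1* was at 6.43, 2.11 and 2.52 in WT and 7.01, 5.46 and 1.27 in *Npc1-/-* mice. Its highest and lowest values of all 6 libraries thus both came from *Npc1-/-* mice. *Bub1*, a kinase of the spindle checkpoint, was at 0.757, 0.398 and 0.164 in WT and 1.04, 0.772 and 0.275 in *Npc1-/-* mice (log2 fold change 0.34, SE 0.342, adjusted p = 0.619 in limma), with 0.11 without WT replicate 3 and 0.64 without *Npc1-/-* replicate 3. The other 7 members of the role (*Ccnb2*, *Aurka*, *Aurkb*, *Plk1*, *Bub1b*, *Cdc20* and *Ccna2*) had log2 fold changes between -0.23 and 0.28.

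The 13 genes of mitotic chromosomes, centromeres and spindles had a median log2 fold change of 0.19, with 12 above 0. *Mki67*, whose product Ki-67 coats mitotic chromosomes and is the usual marker of cycling cells, was at 3.44, 1.42 and 0.770 scaled TPM in WT and 4.27, 2.02 and 0.674 in *Npc1-/-* mice. The highest WT mouse had 4.46 times the lowest and the highest *Npc1-/-* mouse 6.33 times the lowest, whereas the means of the genotypes, 1.87 ± 1.39 and 2.32 ± 1.81 (SD, n = 3 each), differed 1.24-fold. The log2 fold change was 0.19 (SE 0.576, 95% confidence interval -1.17 to 1.54, adjusted p = 0.890 in limma). It was -0.19 without WT replicate 3, -0.30 without *Npc1-/-* replicate 1 and 0.71 without *Npc1-/-* replicate 3.

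*Top2a*, the topoisomerase that untangles replicated chromosomes, was at 6.19, 2.58 and 1.32 scaled TPM in WT and 8.59, 4.56 and 1.00 in *Npc1-/-* mice (log2 fold change 0.30, SE 0.709, adjusted p = 0.855 in limma). The ratio of highest to lowest mouse was 4.69 in WT and 8.55 in *Npc1-/-*, and the log2 fold change was -0.15 without WT replicate 3, -0.27 without *Npc1-/-* replicate 1 and 1.02 without *Npc1-/-* replicate 3. *Birc5* and *Cdca8* encode survivin and borealin of the chromosomal passenger complex, to which the kinase of *Aurkb* also belongs. *Birc5* was at 3.96, 2.86 and 1.45 in WT and 4.59, 3.68 and 1.78 in *Npc1-/-* mice (log2 fold change 0.24, adjusted p = 0.769 in limma). *Cdca8* was at 3.22, 1.34 and 1.17 in WT and 3.72, 2.37 and 1.13 in *Npc1-/-* mice (log2 fold change 0.26, adjusted p = 0.772 in limma). Without *Npc1-/-* replicate 3 the log2 fold change was 0.59 in *Birc5* and 0.63 in *Cdca8*. The other 9 genes of the role encode motors and spindle proteins (*Kif11*, *Kif20a*, *Kif23*, *Tpx2*, *Nusap1*, *Prc1*) and centromere proteins (*Cenpa*, *Cenpe*, *Cenpf*), with log2 fold changes between -0.15 (*Nusap1*) and 0.30 (*Prc1*). *Kif23* departed from the rest of its role, with WT replicate 2 highest at 4.72 beside 2.20 and 1.75 in WT replicates 1 and 3.

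In addition to *Mcm7*, 8 members (*Ccna2*, *Ccne2*, *Cdc20*, *Cdca8*, *Cdk2*, *Kif20a*, *Prc1* and *Tk1*) share exon sequence with a gene on the other strand that had a mean TPM of at least 0.5. The most abundant partner was *Elovl1* at 88.8, beside *Cdc20*, so that the level of *Cdc20* is uncertain where strand was not used.

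Most members varied widely between mice of the same genotype. The SD between mice of a genotype, taken from the residuals of the fit on the log2 scale, had a median of 0.61 over the 40 members and 0.181 over all genes tested. The spread was wide also among genes of like level. A mean scaled TPM of 0.5 to 10 was found for 38 members, and of these 36 had an SD above the median of the 8602 genes in that range (0.214), and 26 an SD above their 90th percentile (0.489). Mitotic members spread most, with a median SD of 0.75 for the cyclins and kinases and 0.64 for the chromosome and spindle genes. The median was 0.42 for licensing, 0.43 for DNA synthesis and 0.27 for the G1/S members. The ends of the range were *Top2a* (1.15, above 99.2% of all genes tested) and *Pcna* (0.0498, above 2.24%). The 16 members with both CHR and CCAAT letters in their promoters had SDs between 0.479 and 1.15 (median 0.70), and the other 17 members with a promoter between 0.0498 and 0.852 (median 0.49), as a description of genes grouped also by role.

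**Figure D3:**
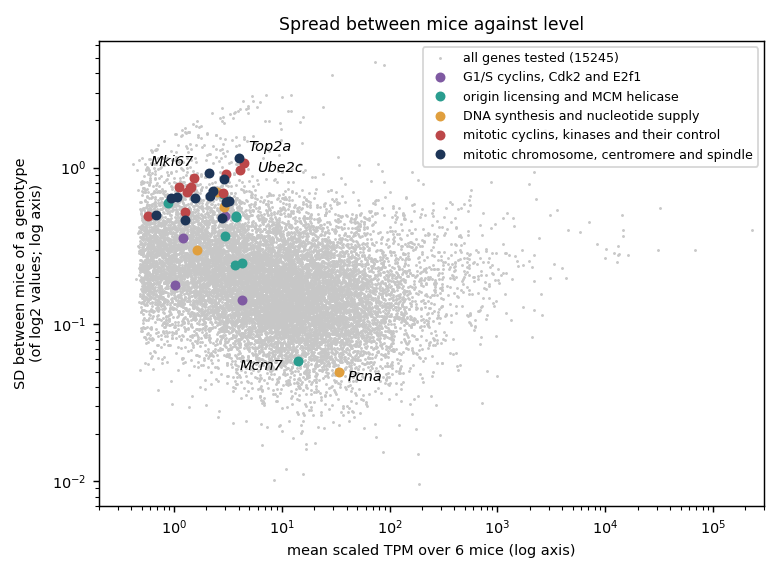
SD between mice of a genotype (of log2 values, log axis) against mean scaled TPM over the 6 libraries (log axis) for all 15245 genes tested (grey) and the 40 members (coloured by role). Most members lie above the bulk of genes of like level, with *Top2a* (1.15) and *Ube2c* (1.07) highest, while *Mcm7* (0.0584) and *Pcna* (0.0498) lie toward the lower edge.

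The mice ranked alike across most members. In WT, replicate 1 was highest, replicate 2 intermediate and replicate 3 lowest in 27 of 40 members, an order held by 21.7% of all genes tested. The same order of replicates was found in *Npc1-/-* mice in 35 of 40 members, beside 22.5% of all genes tested. It was found in both genotypes in 26 of 40 members, beside 8.81% of all genes tested. The order was singled out after the values were seen, and the labels give the replicate number no meaning beyond naming a mouse. Deviations from the group means nevertheless correlated best with the same number in the other genotype in 6 of 6 samples. Whether the numbers link mice of the 2 genotypes cannot be told from the labels. By role, both genotypes had the order in 9 of 11 mitotic cyclins and kinases, 10 of 13 chromosome and spindle genes, 6 of 8 licensing genes, 1 of 4 genes of DNA synthesis and 0 of 4 G1/S genes. The size factors of the libraries followed it too, at 1.295, 1.11 and 1.04 in WT mice and 1.10, 0.855 and 0.727 in *Npc1-/-* mice. With TPM as deposited, 30 members and 39.6% of all genes tested had the order in both genotypes, and after quantile normalization 26 members and 9.90% did. The part of library composition in the order was not tested beyond this.

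Summed over the role, mitotic cyclins and kinases reached 33.3, 16.5 and 10.9 scaled TPM in WT and 41.8, 28.2 and 8.02 in *Npc1-/-* mice, so the highest mouse had 3.04 and 5.21 times the lowest. The chromosome and spindle genes reached 37.8, 23.9 and 14.7 in WT and 50.0, 28.6 and 13.6 in *Npc1-/-* mice. The licensing genes spanned a narrower range, from 29.9 to 40.1 in WT and from 31.0 to 46.0 in *Npc1-/-* mice. The genes of DNA synthesis, most of whose sum is *Pcna*, lay between 37.7 and 40.4 in WT and between 41.2 and 46.3 in *Npc1-/-* mice.

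Markers of several cell types were read in the same libraries, since the captured cells could include more than one dividing type. The 7 OPC markers summed to 143, 149 and 128 scaled TPM in WT mice, where the highest was 1.16 times the lowest, and *Pdgfra*, the growth factor receptor that defines OPCs, was at 14.9, 15.2 and 14.9. In *Npc1-/-* mice the OPC markers summed to 221, 197 and 120, and *Pdgfra* was at 25.4, 18.1 and 12.7. Between WT mice the mitotic sums differed while the OPC marker sums were nearly equal. In *Npc1-/-* mice the mitotic and OPC sums ranked the mice alike. The part of OPC number in the mitotic values was not tested. The 7 OPC markers did not all go the way of *Pdgfra*: 5 had a log2 fold change above 0 and 2 below 0, from -0.16 to 0.72. Of the 7 OPC markers, 1 had the order of replicates described above in both genotypes.

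All 8 markers of cerebellar granule cells and their progenitors, of which 7 passed the expression filter, summed to 117, 53.3 and 53.1 scaled TPM in WT and 129, 71.2 and 45.7 in *Npc1-/-* mice. *Barhl1*, a transcription factor of that lineage, was at 7.20, 1.69 and 1.54 in WT and 11.3, 4.81 and 0.468 in *Npc1-/-* mice. *Neurod1*, which marks differentiating granule neurons, was at 25.4, 7.92 and 3.31 in WT and 34.9, 17.3 and 4.28 in *Npc1-/-* mice. *Atoh1*, which defines dividing granule cell precursors, fell below the filter, at 0.448, 0.127 and 0.0674 in WT and 0.644, 0.0936 and 0.0413 in *Npc1-/-* mice. Its lowest values rest on few fragments. Of the 7 markers tested, 3 (*Barhl1*, *Neurod1* and *Zic2*) had the order of replicates in both genotypes, and *Zic1*, *Gabra6*, *Cbln1* and *Cbln3* did not have it. Of the latter, *Cbln1* was at 5.58, 2.78 and 4.58 in WT and 6.61, 6.02 and 4.86 in *Npc1-/-* mice. All 7 neuroblast markers, of which 5 passed the filter, summed to 16.5, 8.99 and 6.73 in WT and 18.2, 10.4 and 6.47 in *Npc1-/-* mice. Of the 5 that passed, 3 had the order of replicates in both genotypes, among them *Dcx* at 6.13, 3.21 and 1.87 in WT and 7.86, 4.29 and 2.05 in *Npc1-/-* mice. Of 6 pan-neuronal markers, 0 had the order in both genotypes. The part of these cells in the mitotic values was not tested, and no gene of the OPC, granule cell and neuroblast lists was called between genotypes.

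**Figure D4:**
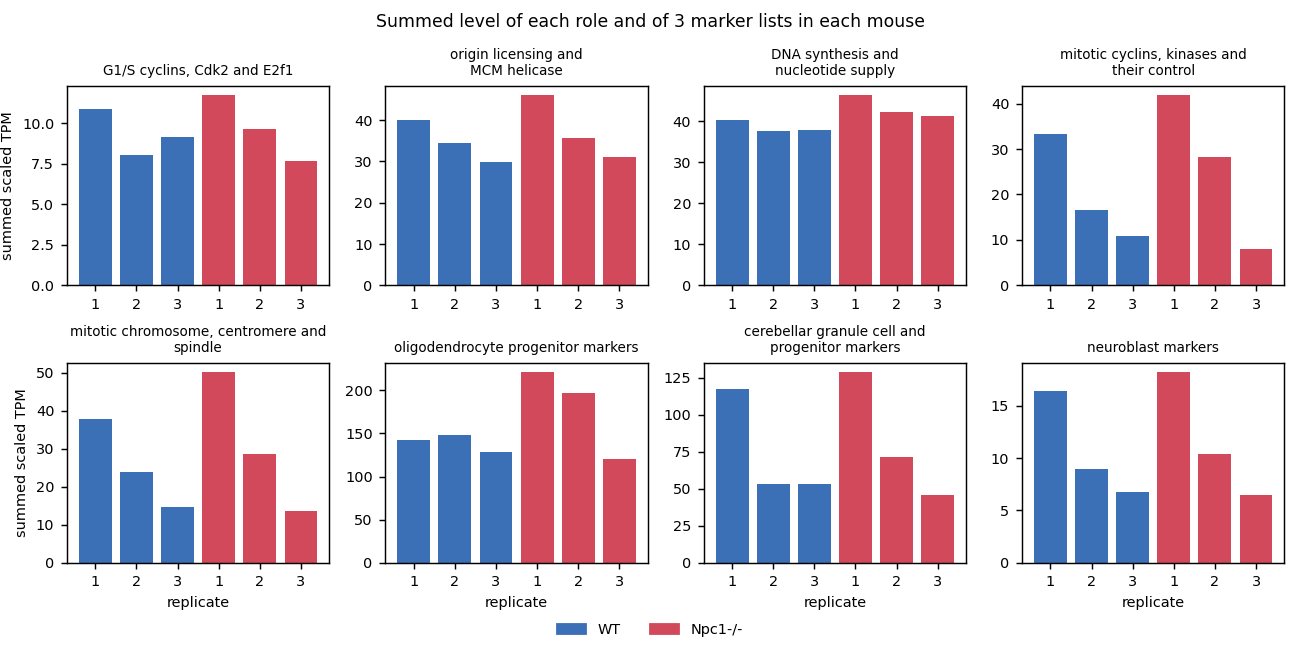
Summed scaled TPM per library (bars, axes from 0) of each role of the members and of the listed markers of OPCs, cerebellar granule cells and neuroblasts, in WT (blue) and *Npc1-/-* (red) replicates 1, 2 and 3. The sums include markers below the filter. Both mitotic roles run from 33.3 to 10.9 and from 37.8 to 14.7 across WT mice, while OPC markers stay between 128 and 149.

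The wider cell cycle pathway was read through 5 further lists that hold no member, and none of their genes passed the threshold in limma. Of 27 other mitosis genes tested, 22 had a log2 fold change above 0 (median 0.20), and 19 had the same order of replicates in both genotypes. *Tacc3*, a spindle protein, had the smallest p of this list and was at 4.42, 3.67 and 3.39 scaled TPM in WT and 6.27, 4.81 and 5.35 in *Npc1-/-* mice (log2 fold change 0.47, adjusted p = 0.119 in limma). *Anln*, singled out after its values were seen, ran the other way, at 28.9, 40.7 and 51.7 in WT and 37.2, 52.1 and 82.1 in *Npc1-/-* mice. It encodes the cytokinesis protein anillin, which myelinating oligodendrocytes also express. The 7 markers of mature oligodendrocytes, most of whose sum is *Mbp*, summed to 171722, 237586 and 242777 in WT and 217303, 342793 and 431416 in *Npc1-/-* mice, but *Mag* on that list was at 1187, 1146 and 1079 in WT and 1669.5, 1510 and 1388 in *Npc1-/-* mice.

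Of 23 other DNA replication genes tested, 19 had a log2 fold change above 0 (median 0.16) and 2 an unadjusted p below 0.05. *Chaf1a*, a subunit of the chromatin assembly factor that works with the Pcna clamp, was at 1.85, 1.97 and 2.40 scaled TPM in WT and 2.79, 3.43 and 4.95 in *Npc1-/-* mice. These groups did not overlap, where 13.3% of all genes tested lay higher without overlap. The log2 fold change of *Chaf1a* was 0.69 (SE 0.205, adjusted p = 0.111 in limma). Among 11 E2F and other cell cycle transcription factors tested, 6 had a log2 fold change above 0 (median 0.055) and none had an unadjusted p below 0.05. *Lin54*, the MuvB subunit that reads the CHR, had the smallest p, with log2 fold change 0.25 (adjusted p = 0.369 in limma).

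The lowest log2 fold changes of the wider pathway were those of *Cdkn2b*, *Cdkn1a* and *Cdk6*, genes that act in G1. Of 13 CDK inhibitors and other brakes tested, 8 had a log2 fold change below 0 (median -0.13), and 3 had an unadjusted p below 0.05, a share near the 22.2% of all genes tested. Of these 3, *Cdkn2b* and *Btg2* lay lower and *Cdkn2d*, the p19 inhibitor gene, higher in *Npc1-/-* mice (15.9, 16.5 and 16.8 against 19.4, 19.0 and 19.5 scaled TPM). *Cdkn2b*, which encodes the p15 inhibitor of Cdk4 and Cdk6, was at 4.34, 2.88 and 4.95 scaled TPM in WT and 1.09, 2.33 and 1.87 in *Npc1-/-* mice, without overlap (log2 fold change -1.02, SE 0.264, adjusted p = 0.0850 in limma). *Cdkn1a*, which encodes the p21 inhibitor, was at 22.9, 30.1 and 24.7 in WT and 8.02, 15.4 and 24.9 in *Npc1-/-* mice (log2 fold change -0.80, adjusted p = 0.247 in limma), with *Npc1-/-* replicate 3 inside the WT range. Of 7 G1 cyclins, their kinases and Myc factors, 5 had a log2 fold change below 0 (median -0.050). *Cdk6* was at 2.15, 2.57 and 2.13 in WT and 0.944, 0.959 and 1.62 in *Npc1-/-* mice, also without overlap (log2 fold change -0.75, SE 0.194, adjusted p = 0.0850 in limma). Markers of other cell types also lay lower in *Npc1-/-* libraries. Of all genes tested, 14.2% lay lower without overlap, 13.3% lay higher without overlap and 0.813% were called. The 7 microglia markers summed to 170 to 270 scaled TPM in WT and 77.1 to 147 in *Npc1-/-* mice, with 5 of 7 not overlapping and 1 called, and the 5 endothelial markers summed to 444 to 653 and 318 to 375, with 5 of 5 not overlapping. Mural cell markers summed to 330 to 490 in WT and 199 to 251 in *Npc1-/-* mice, with 4 of 5 not overlapping. Of 6 astrocyte markers, 4 lay lower and *Gfap* higher in *Npc1-/-* mice without overlap (median log2 fold change -0.33), while their sums, 589 to 614 and 397 to 803, overlapped. Of 7 committed and immature oligodendrocyte markers, 6 had a log2 fold change below 0 (median -0.14), while their sums, mostly *Bcas1* (log2 fold change 0.74), were 3062 to 4247 and 4055 to 6576. Erythroid markers summed to 4060 to 9514 and 1763 to 6957, and pan-neuronal markers to 84.8 to 120 and 123 to 154. Their part in the values of *Cdkn2b* and *Cdk6* was not tested.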

How the data were processed

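Poly(A) RNA of O4-captured cells from 3 WT and 3 *Npc1-/-* mice (P16, 1 mouse per library) was sequenced as paired ends. The study's methods describe trimming with bbduk, STAR alignment to GRCm38 and counting with featureCounts, while the submitters' processing notes name cutadapt 2.3, STAR 2.7.8a and RSEM 1.3.3. Which of these made the tables, and whether strand was used, is not given in the sources used here. The authors deposited TPM and FPKM for 55492 genes.

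TPM was divided by median-of-ratios size factors (18690 genes above 0 in every library), and log2(scaled TPM + 0.5) was modelled by genotype alone in limma 3.58.1 under R 4.3.3 (eBayes with trend) over the 15245 genes whose mean TPM reached 0.5. Fold changes on this scale understate changes of low genes. P-values were two-sided and adjusted by Benjamini-Hochberg over all genes tested. The model was tested on simulated data. TPM is not a count, so no count test was run. Depth was read from FPKM steps, of which 78.8% to 83.1% were whole to within 0.15 (30.0% by chance). Whole fragments were not recovered for genes with several transcripts.

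Genes were named by rule: within each role the 2 members with the smallest unadjusted p and the one with the highest mean level, with *Mki67*, and the smallest p of each further list. Values of other genes were added after they were seen. The members, gene lists and marker lists were chosen with earlier results of these data known. Overlaps came from GENCODE M21 (GRCm38, 55141 of 55492 identifiers found) and promoters from RefSeq. Alternatives were pseudocounts of 0.1 and 1, FPKM, quantile normalization, unscaled TPM, a mean TPM minimum of 5 or none, no trend, robust estimation, the replicate number as a block and each library left out. The order of replicates under other scalings was added after seeing the data.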

Additional observations from a re-analysis of the deposited data

How the results depend on the processing

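No member passed the threshold under any alternative, those that left out a library included. Genes past the threshold numbered 124 (61 higher, 63 lower). They numbered 924 with TPM as deposited (54 higher, 870 lower), 225 after quantile normalization (92 higher, 133 lower), 21 without a filter (28469 genes tested), 447 at a mean TPM of at least 5, where 2 members remain (*Mcm7* and *Pcna*), 42 without trend, and 4 to 486 with a library left out. Members without overlap numbered 0 higher and 2 lower with TPM as deposited, and 2 to 8 higher and 0 to 1 lower with a library left out. The 8 were found without *Npc1-/-* replicate 3, where 20.1% of all genes tested were higher without overlap. Other shares of all genes under these settings were not counted, so these counts are not read as a result about the members. Their median log2 fold change was -0.12 with TPM as deposited (all genes -0.33) and -0.16 to 0.52 with a library left out. With TPM as deposited, 12 members had a log2 fold change above 0 and 28 below 0, beside 31 and 9 with size factors. Among the members named by rule, the log2 fold change then reversed in *Mcm7* (-0.067), *Pcna* (-0.24), *Mki67* (-0.072), *Birc5* (-0.063) and *Cdca8* (-0.017). With a library left out it ranged from -0.13 to 1.05 in *Ube2c*, -0.30 to 0.71 in *Mki67*, -0.27 to 1.02 in *Top2a*, -0.087 to 0.59 in *Birc5* and -0.057 to 0.63 in *Cdca8*. The cause was not tested. Without *Npc1-/-* replicate 1, 39 members passed the filter.

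Samples of the same replicate number come from different mice, and deviations from the group means correlated at 0.414, 0.0602 and 0.326 for numbers 1, 2 and 3, so the numbers were not taken to pair them, although 6 of 6 samples correlated best with their own number in the other genotype, which is a hint from the data and not the design. When replicate number was added as a block, 2011 genes and 0 members passed the threshold, and the smallest adjusted p of a member was 0.0584 in limma.

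Depth limits the low members: at 0.164 scaled TPM, *Bub1* in WT replicate 3 rests on few fragments. With 3 mice per genotype, a fold change smaller than the wide intervals of the mitotic genes was not detectable.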
